A study of Mus musculus with 2 samples.

Results

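The glutathione, peroxiredoxin and thioredoxin systems were followed through RNA of sorted luminal epithelial cells of the mouse prostate. Members were defined by a rule on gene symbols, set with earlier results of these data known. It took in the numbered genes of the cytosolic, kappa and microsomal glutathione transferases (Gst, Mgst), glutathione peroxidases (Gpx) and peroxiredoxins (Prdx). It also took in those of the thioredoxins and their reductases (Txn, Txnrd) and superoxide dismutases (Sod). Gclc, Gclm, Gss, Gsr, Cat, Nqo1, Nfe2l2, Keap1 and Srxn1 were added by name. The rule found 52 members among the 18724 genes of the table, of which 2 are pseudogenes. The series holds 2 libraries of total RNA from prostate luminal cells of mice aged 18 weeks, separated by flow cytometry on GFP carried by histone 2B. Cells positive for GFP, which retained the label, gave one library, and cells negative for GFP gave the other, called non-retaining here. Such a label is diluted as cells divide, and the study's title describes the retaining cells as progenitors that resist castration. The sources used here do not give strain, the promoter driving the label, the duration of the chase, the surface markers of the sort or the number of mice pooled.

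These enzymes hold the cell's thiol groups reduced and remove peroxides. NRF2, encoded by Nfe2l2, switches on many of their genes through antioxidant response elements, and KEAP1 marks NRF2 for degradation in unstressed cells. Glutathione is made from amino acids in consecutive ligase steps, is oxidised by the glutathione peroxidases, is restored by glutathione reductase, and is joined to electrophiles by the glutathione transferases. Peroxiredoxins reduce peroxides with a cysteine that most of them regenerate through thioredoxin, which thioredoxin reductase in turn recharges with electrons from NADPH. In prostate biology GSTP1 is known as a gene of basal cells that is silenced by methylation in most human prostate cancers.

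Gene counts summed to 50689229 reads for label-retaining and 48334265 for non-retaining cells. Each group has a single library (n = 1), so differences have no replicate check, no test between groups was possible, and every interval in the text covers counting error only. The luminal keratin and secretory markers were abundant in both libraries: the 12 listed luminal genes took up 5.33% of reads in label-retaining cells against 1.58%. Markers of other cells differed as well. The 12 listed basal genes were all lower in the label-retaining library, with 0.108% of its reads against 1.09%, a median log2 ratio of -4.29 and no marker at 0. All 10 T and natural killer cell markers were lower (0.000221% against 0.0231% of reads, with Gzma at 0 in the label-retaining library), all 8 smooth muscle markers were lower (0.00426% against 0.0561%), and so were all 4 red cell markers in the table (0.000866% against 0.0213%). The 8 seminal vesicle secretion genes were all higher (0.167% against 0.00175%, with Svs3a, Svs6 and Sva at 0 in the non-retaining library). Other sets were mixed: of 8 fibroblast markers 2 were higher and 3 lower (0.0437% against 0.221%), of 8 endothelial markers 0 and 5 (0.00142% against 0.00568%), and of 7 measured neuroendocrine markers 3 and 2 (0.00104% against 0.0012%). The part of these differences in the results below was not tested. In bulk samples such as these, fewer cells of a type and less RNA per cell cannot be told apart.

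Members differed widely from each other, and as a set they were called at about the rate of all genes. The size rule, used for every call of higher or lower, asked that a gene had a mean of at least 10 normalised counts, lay at least 2-fold apart between the libraries and had an exact 95% counting interval without equality in it. Of the 51 members that passed the filter on low counts, 7 (13.7%) were higher in the label-retaining library and 10 (19.6%) lower. The background among all 17183 measured genes was 14.5% higher and 19.4% lower, so the members' counts lie near it. Their median log2 ratio (label-retaining over non-retaining) was 0.05, against -0.01 for all measured genes. The higher members were Prdx6 and its pseudogene Prdx6-ps2, Gss, Srxn1, Txnrd2, Gstt2 and Prdx3, and the lower ones Nfe2l2, Nqo1, Gpx1, Prdx4, Txnrd3, Gstt1, Gsto1, Gsto2, Gstp1 and Gstp2. When Krt8 and Krt18 reads were set equal between the libraries, ratios moved down by about 0.78 and 1 member was higher and 17 lower, against a background of 5.46% and 40.7%. The 10 lower members were lower under that scaling too, and of the 7 higher ones Prdx6-ps2 alone kept its call. Scaled on total reads, 7 members were higher and 12 lower (background 11.3% and 23.1%), and with trimmed-mean scaling 7 and 10 (14.6% and 19.3%). Limits of 1.5-fold gave 15 and 13 (24.2% and 26.8%) and limits of 4-fold 1 and 3 (4.32% and 9.64%). A pseudocount of 5 gave 7 and 10 (13.6% and 18.4%), no filter 7 and 11 (14.5% and 19.5%), and a minimum mean of 100 gave 6 and 7 of 41 members (13.3% and 16.7%).

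**Figure D1:**
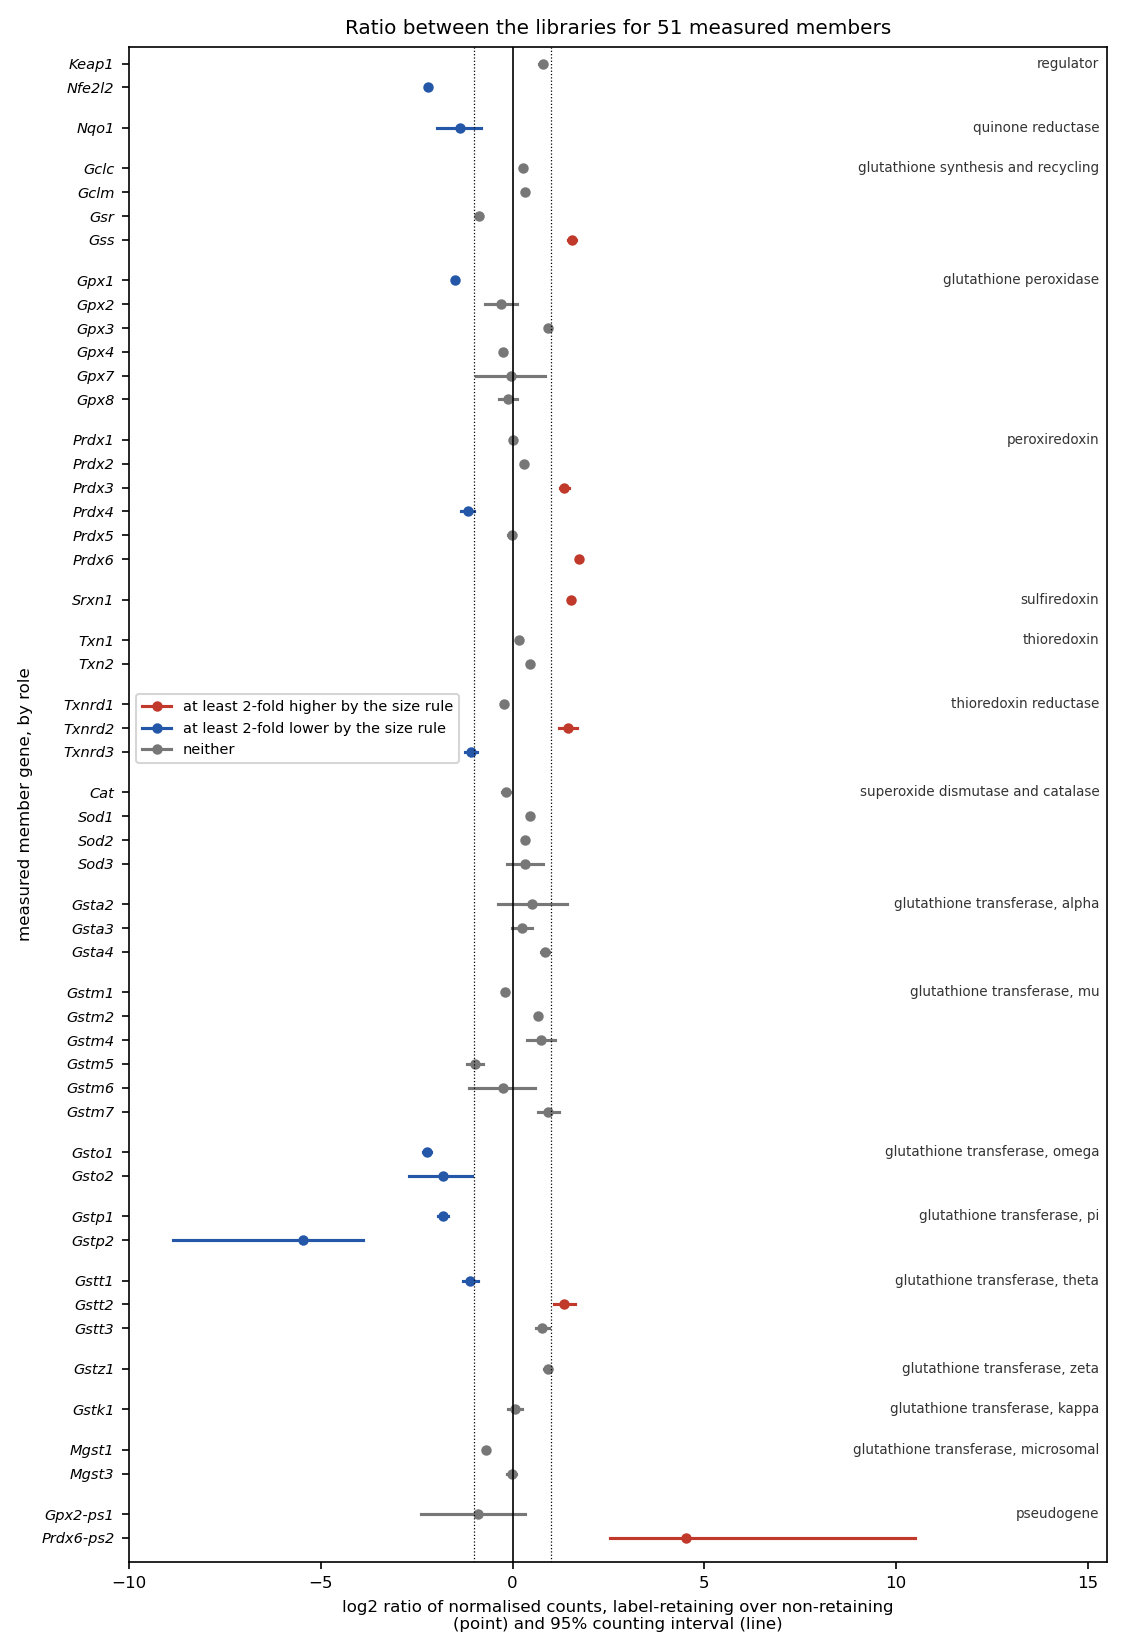
Log2 ratio of normalised counts (x axis, label-retaining over non-retaining library) for the 51 measured members (y axis, by role). Points are ratios, lines 95% counting intervals, and dotted lines mark 2-fold; 7 members lie above and 10 below by the size rule, and Gstp2 and Prdx6-ps2 have the widest intervals because each has under 4 reads in 1 library.

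Among the regulators, RNA of the transcription factor was lower in the label-retaining cells and RNA of its inhibitor was not. Nfe2l2 (ENSMUSG00000015839.6, chromosome 2, 75675513 to 75704641, minus strand, GRCm38) had 3989 reads in label-retaining against 20070 in non-retaining cells. Its log2 ratio was -2.20 (interval -2.25 to -2.15), which is 4.59-fold lower, and it was among the 3 members at least 4-fold lower, with Gsto1 and Gstp2. Keap1, whose product holds NRF2 in the cytosol and targets it for degradation, had 2829 against 1802 reads and a log2 ratio of 0.78 (0.70 to 0.87), under 2-fold. Per length, measured as reads per kilobase of exon scaled to library depth (RPKM), Keap1 stood at 0.574 of the Nfe2l2 level in the label-retaining library and at 0.0726 in the non-retaining library. This comparison within each library does not depend on the scaling between them; like the other pairs of genes set against each other per length, it was chosen after its values were seen. The 10.9% of Keap1 exon bases that lie opposite another gene, Gm16754, cannot be told apart from it without knowing how strand was counted.

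Genes that NRF2 is known to activate did not share a direction. Nqo1, a quinone reductase often read as the marker of NRF2 activity, was scarce, with 36 against 103 reads (log2 ratio -1.37, interval -1.97 to -0.82). Srxn1, which encodes sulfiredoxin, the enzyme that repairs overoxidised peroxiredoxins, went the other way with 9623 against 3640 reads (1.54, 1.48 to 1.59). Gclm, Gclc, Txnrd1 and Prdx1, also textbook targets, all lay within 1.5-fold of equality under the deposited scaling. Promoter windows were therefore searched for the core of the element that NRF2 reads. Promoters of 300 bases (250 before and 50 after the RefSeq start, GRCm38.p6) were found for 44 of the 52 members, and none was found for Gclc, Gsr, Gsta4, Gstt2, Prdx6, Sod3 or the 2 pseudogenes. The core TGACNNNGC, searched on both strands, occurred in 10 of the 44 (22.7%) and in 14.0% of the 27025 genes with a promoter window. Of the 10, Srxn1 was higher, Nfe2l2 was lower and the other 8 (Gclm, Gsta3, Gstm5, Gstm7, Mgst1, Prdx1, Sod1 and Txnrd1) were not called by size. Among all measured genes 14.5% were higher and 19.4% lower. Of the members whose window held no match, 3 were higher, 9 lower, 21 neither and 1 not measured. The windows of Nfe2l2 itself and of 4 NRF2 targets show how the same core sits beside genes with different ratios. They are written along the gene's strand with the match in capitals; a match that begins with GC reads as the core on the other strand.
Nfe2l2, chr2:75704885-75704913: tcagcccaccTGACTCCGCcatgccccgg
Gclm, chr3:122245413-122245441: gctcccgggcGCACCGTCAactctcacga
Prdx1, chr4:116685456-116685484: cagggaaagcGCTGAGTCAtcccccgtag
Srxn1, chr2:152105542-152105570: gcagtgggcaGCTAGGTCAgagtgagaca
Txnrd1, chr10:82859104-82859132: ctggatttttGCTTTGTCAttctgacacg
Nfe2l2 lies on the minus strand of its chromosome and the other 4 genes on the plus strand. Counted from the start site, the match begins at -240 for Nfe2l2, -134 for Gclm, -133 for Prdx1, -92 for Txnrd1 and 28 for Srxn1, which is inside the transcribed part. A match is a run of letters and does not show binding. The Nqo1 window held no match, which says only that these letters are not in those 300 bases.

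In glutathione synthesis the last step stood apart from the first. Gclc, the catalytic subunit of glutamate-cysteine ligase, which sets the rate of synthesis, had 4279 reads in label-retaining against 3895 in non-retaining cells (log2 ratio 0.27, interval 0.21 to 0.33). Its modifier subunit Gclm had 3277 against 2871 (0.32, 0.25 to 0.40), and both turned below 0 under the keratin scaling. The level of Gclm relative to Gclc per length was 0.458 in label-retaining against 0.441 in non-retaining cells, with a counting interval of the difference that held 0 (-0.04 to 0.15 on the log2 scale). Gss, glutathione synthetase, which adds the final glycine, had 2866 against 1081 reads (1.54, 1.44 to 1.64). On the other strand, 15.4% of Gss exon bases overlap Acss2, Gssos1 and Gssos2, and those reads are uncertain. Gsr, the reductase that returns oxidised glutathione to its working form, had 2015 against 4022 reads (-0.86, -0.94 to -0.79), just under 2-fold lower. Gss and Gsr thus lay on opposite sides of equality under the deposited scaling, while the ligase subunits lay between them.

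The glutathione peroxidases differed in make-up between the libraries. Gpx1, the main intracellular peroxidase, had 9767 reads in label-retaining against 30137 in non-retaining cells (log2 ratio -1.49, interval -1.53 to -1.46) and was the only one of the 6 measured peroxidase genes to pass the size rule. Gpx3, whose product is secreted, had 20036 against 11650 reads (0.92, 0.88 to 0.95). Per length Gpx1 made up 32.0% of the summed level of the family in the label-retaining library against 66.1%, and Gpx3 52.2% against 20.3%. The most abundant peroxidase RNA was therefore Gpx1 in the non-retaining library and Gpx3 in the label-retaining library. Gpx4, which reduces lipid peroxides in membranes and restrains ferroptosis, had 5233 against 6773 reads (-0.24, -0.29 to -0.19), but 34.7% of its 50-base stretches also occur in other transcripts, among them the pseudogene Gpx4-ps2. Gpx8 and Gpx7, peroxidases of the endoplasmic reticulum, had 293 against 349 reads (-0.12) and 22 against 25 (-0.05). Gpx2, an enzyme best known from gut epithelium, had 85 against 115 reads (-0.30). The counting intervals of Gpx2, Gpx7 and Gpx8 all held 0 under the deposited scaling. Under the keratin scaling Gpx2 was at -1.08 and called lower, Gpx8 at -0.90 and Gpx7 at -0.81. Gpx1 is also abundant in red cells, whose 4 listed markers were all lower in the label-retaining library, from -4.95 (Hbb-bs) to -1.44 (Alas2); the part of this in the Gpx1 value was not tested.

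Peroxiredoxin RNA was dominated by Prdx6 in both libraries. Prdx6 (ENSMUSG00000026701.14, chromosome 1, 161240112 to 161251219, minus strand) encodes a cytosolic enzyme with a single active cysteine that is recharged by glutathione rather than thioredoxin and that also has phospholipase activity. It had 143427 reads in label-retaining against 47179 in non-retaining cells, which is 0.283% and 0.0976% of all reads. The log2 ratio was 1.74 (interval 1.72 to 1.75), or 3.33-fold, and it became 0.95 under the keratin scaling, short of the size rule. By level per length it was gene number 48 of the label-retaining library and number 191 of the non-retaining one. Without Prdx6 the direction of the summed reads turned. All members together took up 0.537% of reads in label-retaining cells against 0.420%, whereas the members other than Prdx6 took up 0.254% against 0.322%. Such sums weigh abundant members most. By ratio under the deposited scaling, 27 of the 51 measured members lay above 0 and 24 below. Prdx6 made up 83.6% of the summed peroxiredoxin level per length in the label-retaining library and 63.7% in the non-retaining library. Prdx6-ps2, a processed pseudogene on chromosome 4, had 32 reads against 1 (4.52, 2.55 to 10.48). No 50-base stretch of its annotated transcript occurs in another transcript, and whether its reads stem from Prdx6 RNA was not tested.

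The peroxiredoxins of separate compartments lay on different sides of equality. Prdx3, the peroxiredoxin of mitochondria, had 1847 against 797 reads (log2 ratio 1.35, interval 1.23 to 1.47). Prdx4, which works in the endoplasmic reticulum and passes oxidising equivalents to disulfide isomerases, had 389 against 962 reads (-1.17, -1.35 to -1.001). The cytosolic Prdx1 had 6687 against 7296 reads and a ratio of 0.01 (-0.04 to 0.06). Prdx2, which like Gpx1 is abundant in red cells, had 3824 against 3437 reads (0.29, 0.22 to 0.35), and both turned below 0 under the keratin scaling. Prdx5, found in cytosol, mitochondria and peroxisomes, had 2078 against 2318 reads and a ratio of -0.02 (-0.11 to 0.06), with 19.1% of its exon bases opposite Trmt112. Prdx3 was the scarcer of the pair in both libraries, with a level per length at 0.569 of Prdx1 in the label-retaining library against 0.225.

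**Figure D2:**
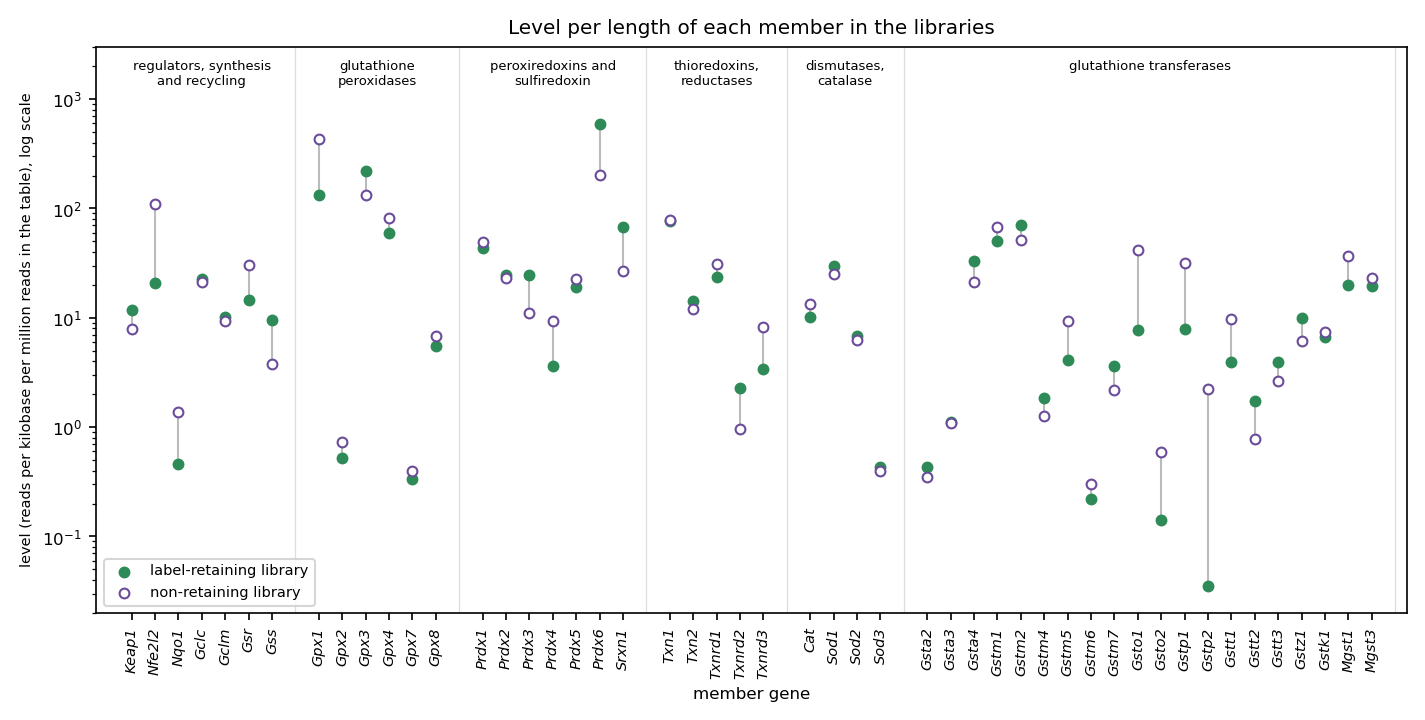
Level per length (y axis, RPKM, log scale) of each member gene (x axis, by family) in the label-retaining (filled) and non-retaining (open) library, without the pseudogenes and Gstp3, which had 0 label-retaining reads. Prdx6 has the highest label-retaining level (589) and Gpx1 the highest non-retaining level (433). Nfe2l2, Gsto1, Gsto2, Gstp1 and Gstp2 show long gaps downwards in the label-retaining library.

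In the thioredoxin system the mitochondrial reductase was higher and the cytosolic chain was near equality. Txn1, the cytosolic thioredoxin, had 4077 reads in label-retaining against 3985 in non-retaining cells (log2 ratio 0.17, interval 0.10 to 0.23), and its reductase Txnrd1 had 8406 against 10714 (-0.22, -0.26 to -0.18). Txn2, the mitochondrial thioredoxin, had 3024 against 2432 reads (0.45, 0.37 to 0.53). Its reductase Txnrd2 had 508 against 206 reads (1.43, 1.20 to 1.68). Txnrd3, a reductase with a fused glutaredoxin domain best known from testis, had 486 against 1127 reads (-1.08, -1.24 to -0.93). Txnrd1 was the main reductase in both libraries, with 80.5% of the summed level per length in label-retaining against 77.3% in non-retaining cells. Txnrd2 stood at 7.84% and 2.39%, and Txnrd3 at 11.6% and 20.3%.

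Seen by compartment, 5 measured members were assigned to mitochondria alone (Prdx3, Txn2, Txnrd2, Sod2 and Gstk1). All 5 had ratios above 0 under the deposited scaling, with 2 called higher and a median of 0.45. The 4 assigned to both cytosol and mitochondria (Prdx5, Gsr, Gpx1 and Gpx4) all had ratios below 0. Of these 4, Gpx1 was called lower, and their median was -0.55. The background for these and the next groups was 14.5% higher and 19.4% lower. Under the keratin scaling Txn2, Sod2 and Gstk1 turned below 0, and neither Prdx3 (0.56) nor Txnrd2 (0.65) kept its call. The 3 members of the endoplasmic reticulum (Prdx4, Gpx7 and Gpx8) had ratios from -1.17 to -0.05, with 1 called lower. Of the 7 selenoproteins among the members, whose active site holds selenocysteine in place of cysteine, Txnrd2 was higher, Gpx1 and Txnrd3 lower, and the median was -0.24. These groupings were made by hand from textbook locations, with earlier results of the data known, and are a description.

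The superoxide dismutases and catalase were all under 2-fold apart. Sod1, the copper-zinc enzyme of the cytosol, had 6011 reads in label-retaining against 4842 in non-retaining cells (log2 ratio 0.45, interval 0.39 to 0.50). Sod2, the manganese enzyme of mitochondria, had 3453 against 3018 (0.33, 0.26 to 0.40), and 21.0% of its 50-base stretches occur in other transcripts. Sod3, the secreted enzyme, had 82 against 72 reads (0.32, -0.15 to 0.80), with an interval that held 0. Cat, the peroxisomal catalase, had 1355 against 1688 reads (-0.18, -0.29 to -0.08). The 3 dismutases, all above 0 under the deposited scaling, were all below 0 under the keratin scaling, so their direction depends on the scaling.

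Of the 20 measured glutathione transferases, 1 was higher and 5 lower, with a median log2 ratio of 0.01 and a background of 14.5% and 19.4%. Under the keratin scaling Gstt2 lost its call, and Gstm5, Gstm6 and Mgst1 joined the lower genes. The background under that scaling was 5.46% higher and 40.7% lower. Under the deposited scaling the lower ones were both omega genes, both measured pi genes and Gstt1. No alpha, mu, zeta, kappa or microsomal gene passed the size rule there in either direction. Per length, the mu class made up 52.8% of the summed transferase level in the label-retaining library and 41.3% in the non-retaining library. The omega class stood at 3.20% and 13.4% and the pi class at 3.19% and 10.9%. Alpha class genes stood at 14.1% and 7.18%.

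Gstp2 of the pi class had the lowest ratio of all measured members. The 3 pi genes lie side by side on chromosome 19 (Gstp1 4035407 to 4037985, Gstp2 4040285 to 4046023 and Gstp3 4057477 to 4059569, all on the minus strand). Gstp1, the main pi enzyme, had 615 reads in label-retaining against 2380 in non-retaining cells (log2 ratio -1.82, interval -1.95 to -1.69). Gstp2 had 2 against 121 reads (-5.47, -8.85 to -3.90). Gstp3 had 0 against 17 reads and a mean below the filter, and the upper limit of its counting interval was -1.91. Gstp1 and Gstp2 were thus lower in the label-retaining library, and Gstp3 was not called. Gstp1 shares 33.7% and Gstp2 54.3% of their 50-base stretches with each other or with the pseudogene Gstp-ps, so reads of the shared parts could have been split or dropped. In these libraries the basal markers were lower as well, with Krt5 at 962 against 28725 reads, and the part of basal RNA in the pi class values was not tested.

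The omega class, enzymes known as thioltransferases and dehydroascorbate reductases, was lower too. Gsto1 (chromosome 19, 47854970 to 47864790, plus strand) had 796 reads against 4087 (log2 ratio -2.23, interval -2.34 to -2.12), which is 4.68-fold lower. Its neighbour Gsto2 had 17 against 67 reads (-1.81, -2.71 to -1.06). In the theta class, neighbours on chromosome 10 lay on opposite sides. Gstt1 had 306 against 722 reads (-1.10, -1.30 to -0.91), Gstt2 368 against 158 (1.35, 1.08 to 1.63) and Gstt3 767 against 492 (0.77, 0.61 to 0.94). Per length Gstt2 stood at 0.442 of Gstt1 in label-retaining against 0.0805 in non-retaining cells.

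Gstm2 and Gstm1 were the leading transferase genes of the mu class, which is expressed in many epithelia. Gstm2 had 5964 reads in label-retaining against 4148 in non-retaining cells (log2 ratio 0.66, interval 0.60 to 0.71), and Gstm1 3765 against 4771 (-0.21, -0.27 to -0.15). By level per length Gstm2 was above Gstm1 in the label-retaining library (70.1 against 50.4 RPKM) and below it in the non-retaining library (51.1 against 67.0 RPKM). Of the scarcer mu genes, Gstm7 had 294 against 169 reads (0.93), Gstm4 159 against 105 (0.73), Gstm5 266 against 575 (-0.98) and Gstm6 22 against 29 (-0.26, with an interval that held 0). Gstm7 and Gstm5 lay just inside 2-fold on opposite sides. In Gstm1, 18.9% of 50-base stretches are shared with relatives such as Gstm3 and Gstm2-ps1.

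Of the alpha class, Gsta4, which conjugates the lipid peroxidation product 4-hydroxynonenal, had 2140 against 1308 reads (log2 ratio 0.84, interval 0.74 to 0.94). Gsta3 had 246 against 227 reads and Gsta2 26 against 20, and both intervals held 0. In Gsta2, 49.8% of 50-base stretches occur in other transcripts, among them Gsta1. Gstz1, which isomerises maleylacetoacetate in tyrosine breakdown, had 2589 against 1507 reads (0.91, 0.82 to 1.01). The mitochondrial kappa enzyme Gstk1 had 499 against 527 reads (0.05, -0.12 to 0.23). Mgst1, a membrane-bound transferase and peroxidase, had 2018 against 3593 reads (-0.70, -0.78 to -0.62), and Mgst3 1093 against 1221 (-0.03, -0.15 to 0.09). The intervals of Mgst3 and Gstk1 held 0 under the deposited scaling, and under the keratin scaling these genes stood at -0.81 and -0.73. The remaining member, the pseudogene Gpx2-ps1, had 8 against 17 reads and an interval that held 0.

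**Figure D3:**
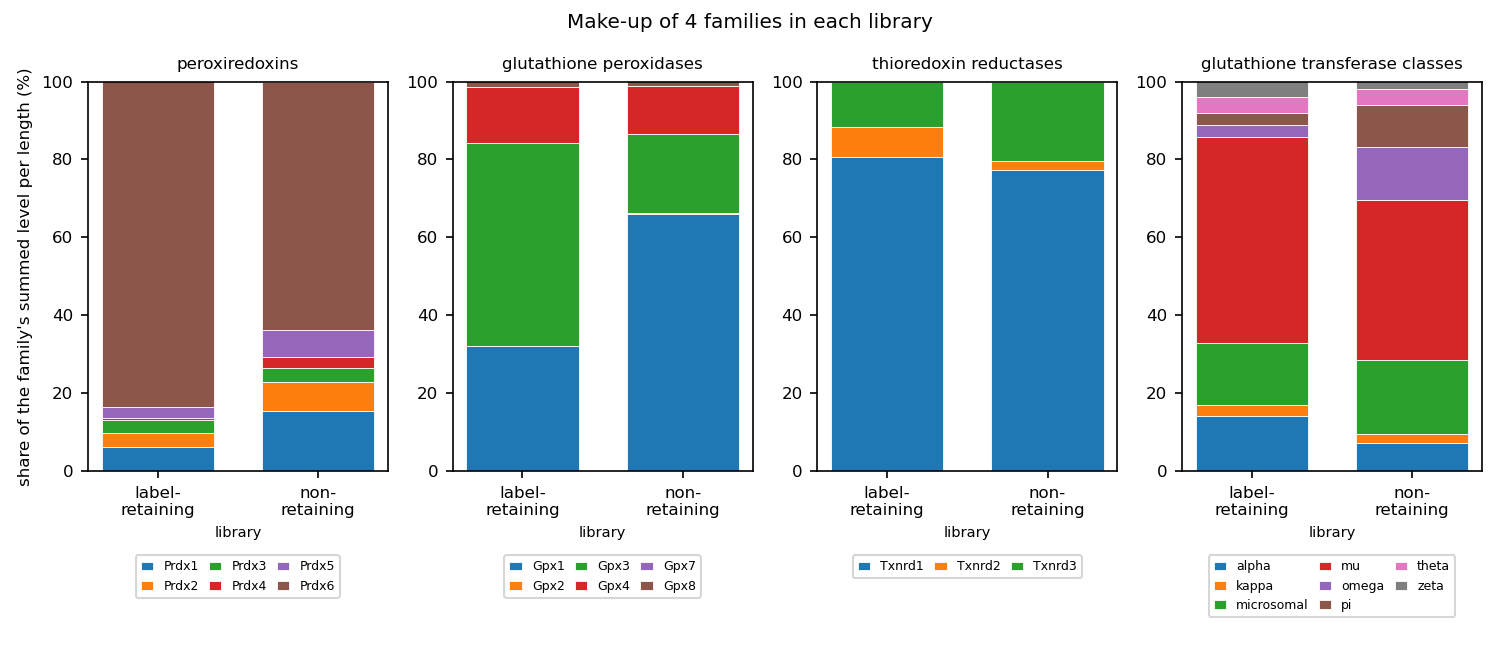
Share of each family's summed level per length (y axis, %) taken by each gene, or for the glutathione transferases by each class, in the label-retaining and non-retaining library (x axis). Prdx6 takes 83.6% of the peroxiredoxins in the label-retaining library against 63.7%, Gpx1 gives way to Gpx3, Txnrd2 stands at 7.84% against 2.39%, and the omega and pi classes are narrower.

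Genes that supply, break down or export glutathione had 7 higher and 3 lower members of 24 measured, with a median log2 ratio of -0.08, against 14.5% and 19.4% of all genes. The 3 higher genes with intervals farthest from equality were Chac1, an enzyme that degrades glutathione inside the cell, with 9619 against 1417 reads (2.90, 2.82 to 2.98), Ggct, which breaks down gamma-glutamyl amino acids, with 3015 against 781 (2.08, 1.97 to 2.20), and the canalicular export pump gene Abcc2, with 66 against 1 (5.56, 3.65 to 11.50). The most abundant member was Slc3a2, the shared heavy chain of amino acid exchangers, with 15127 against 17361 reads (-0.07). Under the keratin scaling 3 were higher and 11 lower, where the background was 5.46% and 40.7%.

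Txnip stood out among the partners of thioredoxin. Of 17 glutaredoxin, thioredoxin partner and methionine sulfoxide reductase genes, 1 was higher and 4 lower, with a median of -0.12 (background 14.5% and 19.4%), and 0 and 7 under the keratin scaling (background 5.46% and 40.7%). Txnip, which binds and inhibits thioredoxin and is induced by glucose, was the most abundant of them with 7931 against 62117 reads (-2.84, -2.87 to -2.80). Msrb3, a methionine sulfoxide reductase, had 681 against 6183 reads (-3.05, -3.17 to -2.93), and Sesn1, a stress-induced sestrin, 412 against 2932 (-2.70, -2.85 to -2.55). Txnip RNA thus differed far more between the libraries than Txn1 (0.17) or Txn2 (0.45).

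Among 15 measured regulators and partners of NRF2, 3 were higher and 1 lower (median 0.16, background 14.5% and 19.4%). Bach2, a repressor that competes for the same DNA element and is known from lymphocytes, had 144 against 1085 reads (-2.78, -3.04 to -2.53). Sqstm1, which encodes the autophagy receptor p62 that binds KEAP1 and is itself induced by NRF2, had 88334 against 37651 reads (1.36, 1.35 to 1.38), and the NRF2 relative Nfe2l3 had 319 against 113 (1.63, 1.32 to 1.95). Of 24 other NRF2 target genes, 5 were higher and 3 lower (median 0.09, same background). Me1, the malic enzyme that yields NADPH, had 2916 against 937 reads (1.77, 1.66 to 1.88), whereas the aldehyde dehydrogenases Aldh3a1 and Aldh1a1 had 51 against 457 (-3.02, -3.48 to -2.61) and 3852 against 20738 (-2.29, -2.34 to -2.25). Fth1, the ferritin heavy chain and the most abundant of the list, was at 0.18 (0.15 to 0.21). Under the keratin scaling 0 targets were higher and 10 lower, and 0 regulators were higher and 3 lower, against 5.46% and 40.7% of all genes, so the count of lower targets lies near the background.

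A list of other selenoproteins and of factors that make them had 1 higher and 3 lower of 20 measured genes (median -0.02), against 14.5% and 19.4% of all genes. The lower ones were the thyroid hormone deiodinases Dio2, with 30 against 313 reads (-3.23, -3.84 to -2.71), and Dio3, with 32 against 314 (-3.14, -3.73 to -2.63), and the selenium carrier Selenop, with 7966 against 22558 (-1.37, -1.41 to -1.33). Other genes with a glutathione transferase fold or of the microsomal family had 3 higher and 1 lower of 12 (background 14.5% and 19.4%), and 1 and 6 under the keratin scaling (background 5.46% and 40.7%), with Clic5 at 6990 against 1468 reads (2.38, 2.30 to 2.47) and Clic4 at 18832 against 83078 (-2.01, -2.03 to -1.98), both chloride intracellular channel proteins. Ltc4s, leukotriene C4 synthase, had 22 against 7 reads (1.71, 0.51 to 3.26) and was not called under the keratin scaling (0.95).

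Enzymes that produce oxidants were lower in 12 of 19 measured genes and higher in 2, with a median of -1.59. The background was 14.5% higher and 19.4% lower. Under the keratin scaling 0 were higher and 15 lower, against a background of 5.46% and 40.7%. Maob, a monoamine oxidase, had 13 against 448 reads (-4.92, -5.89 to -4.18), and Ncf1 and Ncf4, subunits of the phagocyte NADPH oxidase, had 21 against 264 (-3.49, -4.23 to -2.88) and 22 against 249 (-3.34, -4.07 to -2.74). The listed T and natural killer cell markers had a median of -5.88 and the 12 other leukocyte markers one of -0.34 (3 higher and 2 lower, 0.00568% against 0.0197% of reads, with none at 0); the part of leukocyte RNA in the oxidase subunits was not tested.

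**Figure D4:**
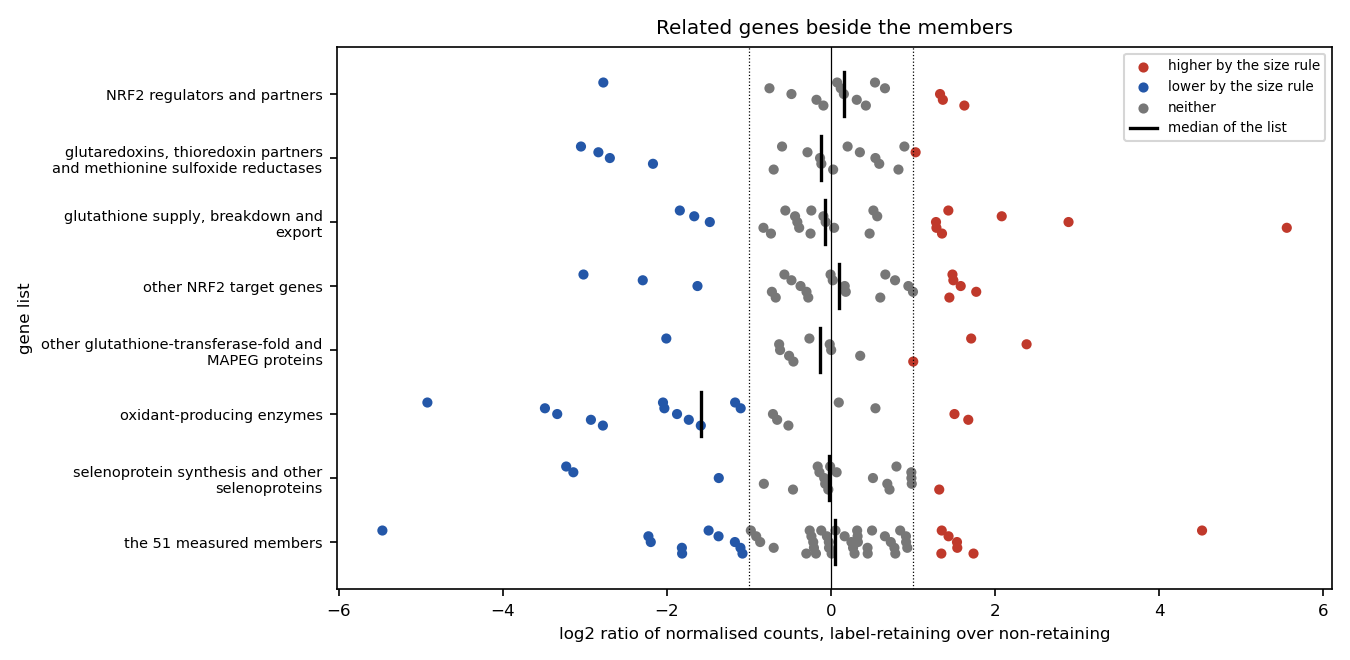
Log2 ratio (x axis, label-retaining over non-retaining) of each measured gene in 7 lists of related genes and of the 51 members (y axis); points are genes coloured by the size rule, bars are list medians and dotted lines mark 2-fold. The members' median is 0.05. The list of oxidant-producing enzymes has a median of -1.59 with 12 of 19 genes lower, against 19.4% of all measured genes.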

How the data were processed

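RNA of 2 sorted cell populations was extracted with a Qiagen RNeasy kit and made into Illumina TruSeq Stranded Total RNA libraries, per the labels' protocols. The table holds a normalised signal per gene: read counts that the authors divided by 1 size factor per library (1.0021 and 1.0993) before they deposited it, as the values show. 100% of values were whole multiples of a step, with a largest deviation of 5.6e-09. Bowtie2 2.1.0, TopHat2 2.0.10 and the build mm10 are named, per the submitters' processing notes, which also list HTSeq 0.6.0, CASAVA 1.8.2 and DESeq 1.16.0, all with no stated role. The sources used here do not give annotation, strand counting or handling of shared reads, so overlapping or near-identical genes are uncertain.

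Symbols were found for 18634 of 18724 identifiers (GENCODE M21, GRCm38). A further 10 annotated symbols that match the rule, among them Gpx5 and Mgst2, were not found among the 18724 identifiers and so have no value here. Log2 ratios used the deposited scaling and a pseudocount of 0.5 normalised counts, with exact (Clopper-Pearson) 95% intervals from recovered reads. Levels per length used merged GENCODE exons. Shared sequence was counted as 50-base stretches of a gene's transcripts found in transcripts of other genes. Over 10% were shared in Gpx2-ps1, Gpx4, Gss, Gsta2, Gstm1, Gstp1, Gstp2, Gstt3, Prdx2, Prdx5 and Sod2. Over 10% of exon bases lay opposite another gene in Gss, Gstm5, Gstz1, Keap1, Prdx2 and Prdx5. Promoters came from RefSeq (GRCm38.p6). Alternatives were total-read, trimmed-mean (TMM) and Krt8 plus Krt18 scaling, other filters, pseudocount 5 and other fold limits. The calculation was also run on simulated counts for 17183 genes, of which 200 were changed. The outcome of that run is not given here, and it cannot stand in for replicate libraries. Named were all members and, of each related list, up to 3 called genes by the interval bound nearest to equality and the most abundant gene, with a few results not reported here. Members and lists were chosen with earlier results of these data known. Python 3.11.15, numpy 2.4.6, pandas 2.3.3 and scipy 1.17.1 were used.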

Additional observations from a re-analysis of the deposited data

How the results depend on the processing

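With 1 library per group, intervals cover counting error only and no library could be left out. No paired analysis was possible because each group had 1 library. TMM scaling and a pseudocount of 5 kept all 51 member calls, and no called member changed sign under any scaling tried. Scaling on total reads moved the median of all genes by -0.20 and that of the members to -0.15, and added Gsr and Gstm5 to the lower members (12). The Krt8 and Krt18 scaling moved the median of all genes by -0.78, gave 1 higher and 17 lower members with a median of -0.73, and turned 15 uncalled members below 0; it assumes equal keratin RNA in both libraries. A minimum of 100 normalised counts left 41 members with a median of 0.25, since low-count members leave the set. A limit of 1.5-fold gave 15 higher members and 4-fold gave 1 higher (Prdx6-ps2) and 3 lower. Without the 11 most abundant genes in the denominator, members took up 0.741% of reads in label-retaining cells against 0.480%. Low counts limit Gsta2, Gstm6, Gpx7, Gpx2-ps1, Gsto2, Gstp2, Gstp3 and Prdx6-ps2 (32 reads against 1).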

Other observations

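Enzymes that supply NADPH, the electron donor of glutathione and thioredoxin reductase, were looked at after their values were seen. Among the listed NRF2 targets, G6pdx, the entry enzyme of the pentose phosphate pathway, had 5477 reads in label-retaining against 2152 in non-retaining cells (log2 ratio 1.48, interval 1.41 to 1.55), and Idh1, the cytosolic isocitrate dehydrogenase, 3566 against 1438 (1.44, 1.36 to 1.53). Pgd, the next dehydrogenase of the pathway, was at 0.60, under 2-fold. Taldo1 (0.78) and Tkt (-0.28), which belong to the same pathway but do not yield NADPH, were also under 2-fold. Under the Krt8 and Krt18 scaling none of these 5 genes, nor Me1, was called higher, and Tkt (-1.06) was called lower.

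The gamma-glutamyl cycle outside the cell was split by gene. Ggt1, the surface transpeptidase that opens extracellular glutathione, had 4201 against 1709 reads (1.43, 1.35 to 1.51), while its relative Ggt5 had 37 against 114 (-1.48, -2.07 to -0.94) and Anpep, a surface peptidase that cleaves the product, 673 against 2650 (-1.84, -1.97 to -1.72). Of the export pump genes, Abcc4 had 2565 against 1154 reads (1.29) and Abcc1 739 against 2576 (-1.67). Under the Krt8 and Krt18 scaling Ggt1 (0.65) and Abcc4 (0.50) lost their call, while Ggt5, Anpep and Abcc1 were lower there too, so the split depends on the scaling. These genes were named after their values were seen.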
